A study of Mus musculus with 16 samples.

Results

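The matrix metalloproteinases (Mmp), the ADAMTS proteases (Adamts), the ADAMTS-like proteins (Adamtsl) and the tissue inhibitors of metalloproteinases (Timp) were compared between brown and white fat of the mouse. The members were all genes of the array whose probe sets carried 1 gene symbol made of one of these family names and a number, with or without a letter after it. There were 42 such genes, with 78 probe sets, among 18194 genes and 34958 probe sets with 1 symbol. They comprised 18 Mmp, 15 Adamts, 5 Adamtsl and 4 Timp genes. Mmp15, Mmp21, Mmp25, Mmp27, Mmp28, Adamts2, Adamts13, Adamts14, Adamts17, Adamtsl6 and Adamtsl7 had no probe set with that symbol alone and were not analysed here.

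The white fat was subcutaneous (sWAT) and the brown fat interscapular (BAT), both from mice of the LACA laboratory strain, and their RNA was hybridised to 16 Affymetrix mouse genome arrays, 8 per tissue. All animals were untreated, with no genetic change named, labelled male, fed standard chow and taken at a body weight of 25 ± 3 g, and their age was not given in the sources used here. Each tissue had 4 replicate numbers with 2 arrays each, the first labelled biological and the second technical, and the 2 were averaged, so that n was 4 per tissue throughout. Each value is on the log2 scale relative to the median of the 16 arrays for the same probe set, so that 0 is the middle array, 1 unit is a 2-fold difference, and the levels of different genes cannot be compared. The values also do not tell whether a transcript was above background. A gene was called higher or lower in BAT at an adjusted p under 0.05 in limma fitted over all 18194 genes.

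Matrix metalloproteinases are zinc enzymes that are made as inactive precursors and cleave collagens, laminins, proteoglycans and growth factor carriers outside the cell. The ADAMTS proteases carry thrombospondin repeats that hold them in the matrix, several of them cut the large proteoglycans versican and aggrecan, and the ADAMTS-like proteins share the repeats but lack the protease domain. TIMPs occupy the active site of these enzymes, and in adipose tissue the balance of both is known for its part in the remodelling of the collagen net around growing fat cells and of the vessel walls.

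The tissues carried their labelled markers. Brown adipocyte markers were higher in BAT in 7 of 7 genes, with Ucp1 (uncoupling protein of brown fat) at a log2 difference of 7.58 ± 0.49 (SE), and 3 of 5 white adipocyte markers were lower. Skeletal muscle markers were higher in BAT in 9 of 9 genes, with list means of 2.19 to 4.27 in BAT and -2.08 to -1.52 in sWAT, and B cell and T cell markers were lower in 6 of 6 genes each, with list means of -2.09 to -1.13 in BAT and 1.43 to 2.17 in sWAT. Xist, the RNA of the inactive X chromosome, was at 5.74, 6.26 and 6.36 in BAT replicates 1 to 3 but at -0.26 in BAT replicate 4 and at -0.27 to -0.11 in sWAT, and Y-linked genes ran the other way, although all labels read male. Tissue and this sign of sex therefore cannot be told apart in numbers 1 to 3. The difference between the replicates numbered 4 is given for most called members and for some other genes. A single array each of sWAT replicate 3 (the first) and of BAT replicate 1 (the second) had low 5' signal in the control probe sets. The 5' minus 3' value, each part relative to the median of the 16 arrays, was -4.79 and -3.56 log2 units in these arrays. The 2 arrays of these replicates correlated at only 0.34 and 0.51, against 0.85 to 0.92 in the other replicates, so that their means cover unlike arrays. With both low arrays left out, all 16 calls on members held. Mmp7, Mmp13, Mmp19 and Mmp20 passed as well, which made 12 members higher in BAT instead of 8. In bulk tissue, fewer cells of a type and less RNA per cell cannot be told apart.

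The families did not move as one. Of the 42 genes, 8 (19%) were higher in BAT against 21% of all genes, and 8 (19%) were lower against 17.5% of all genes. At least a 2-fold difference was reached by 1 gene higher in BAT (Timp4, 2.38% against 7.13% of all genes) and by 4 genes lower in BAT (Adamts20, Mmp3, Mmp2 and Adamts6, 9.52% against 8% of all genes). Without a fold limit the shares of members called were thus near those of all genes in either direction, whereas the share at least 2-fold higher in BAT was below that of all genes. The median log2 difference of the members was 0.09, against 0.15 over all genes, and the median size of the difference was 0.41 against 0.35. In 18 of the 42 genes the difference lay within 0.3 log2 units of 0. The fit took the replicate number as a block, although equal numbers are not shown to be 1 animal. Xist and the Y-linked genes differed between the tissues in numbers 1 to 3, so that, as labelled, these numbers do not read as tissues of 1 animal. Without that block 4 members were lower in BAT instead of 8, 2 of them at least 2-fold instead of 4. The calls of Mmp2, Mmp3, Mmp9, Mmp14 and Adamts9 were lost, and Mmp13 was gained. The genes called lower over the whole array went from 3177 to 3481. The tissues did not overlap in 11 members, 8 higher in BAT (19%, against 28% of all genes) and 3 lower (7.14%, against 17.4%), and 9 of these 11 were among the 16 called. Among the 16, 15 had the same direction at every replicate number, and the exception was Mmp2.

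**Figure D1:**
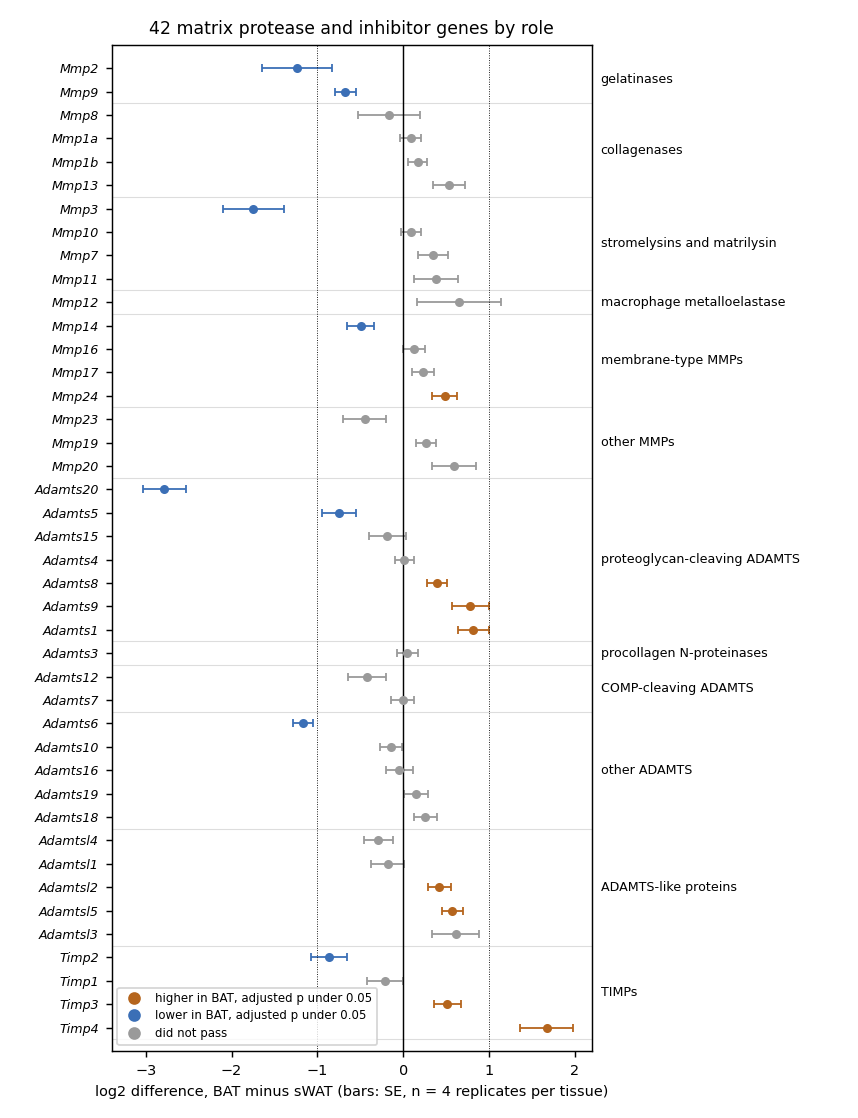
Log2 difference BAT minus sWAT (horizontal axis) of the 42 genes grouped by role, with points for the fitted difference and bars for its SE (n = 4 replicates per tissue); orange and blue points passed an adjusted p of 0.05, and dotted lines mark 2-fold. The 8 genes higher and the 8 lower in BAT are spread over the roles, and Adamts20 at -2.79 and Timp4 at 1.67 stand at the ends.

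The 4 inhibitors differed in direction. Timp4, an inhibitor known for its expression in heart and fat, was higher in BAT, Timp3, the inhibitor bound to the matrix that also blocks ADAM and ADAMTS enzymes, was higher too, and Timp2, the partner of MMP14 in the activation of MMP2, was lower. Timp4 read -0.59, -0.66, -1.47 and -0.27 in sWAT replicates 1 to 4 and 0.38, 1.15, 1.40 and 0.77 in BAT. Every BAT value lay above every sWAT value, and sWAT replicate 3 was the lowest of all. The difference was 1.67 ± 0.31 (SE, adjusted p = 0.00566, 3.19-fold), and its 2 probe sets gave 1.60 and 1.74. Between the replicates numbered 4 it was 1.03.

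Timp3 read -0.49, 0.04, -0.56 and -0.43 in sWAT and -0.07, 0.23, 0.41 and 0.06 in BAT. The tissues overlapped through sWAT replicate 2, which lay above BAT replicate 1. The difference was 0.51 ± 0.15 (adjusted p = 0.0351) and 0.48 between the replicates numbered 4. The 4 probe sets of Timp3 ranged from 0.17 to 1.12, and 1 of them passed the test on its own (1.12 ± 0.17, adjusted p = 0.00247), with no overlap of the tissues. With 3 numbers left, Timp3 did not pass without any one of them (0.55 without replicate 1, 0.62 without 2, 0.36 without 3 and 0.53 without 4, adjusted p = 0.0787, 0.051, 0.0771 and 0.0849).

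Timp2 read -0.05, 0.97, 0.19 and 0.45 in sWAT and -1.24, -0.47, -0.44 and 0.25 in BAT. BAT replicate 4 lay among the sWAT values, and the other 3 BAT values lay below all of them. The difference was -0.87 ± 0.21 (adjusted p = 0.0177), and -0.20 between the replicates numbered 4. It was -0.76 without replicate 1 and -0.67 without replicate 2, with adjusted p = 0.0776 and 0.071. The 6 probe sets of Timp2 disagreed: 3 were lower in BAT at -1.68, -1.60 and -1.39, 1 was higher at 0.60 ± 0.13 (adjusted p = 0.0131) with no overlap of the tissues, and 2 did not pass at -0.69 and -0.44. The mean over the probe sets therefore covers opposite readings, and no file given here tells which transcript each probe set reads.

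Timp1, an inhibitor induced in injured and inflamed tissue, read 0.07, 0.14, -0.25 and 0.33 in sWAT and -0.35, -0.57, -0.52 and 0.87 in BAT. BAT replicate 4 was above all other replicates of both tissues, while the other 3 BAT values were below all sWAT values. Its difference of -0.22 ± 0.21 did not pass (adjusted p = 0.42), was 0.54 between the replicates numbered 4, and was -0.47 without them (adjusted p = 0.0729).

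**Figure D2:**
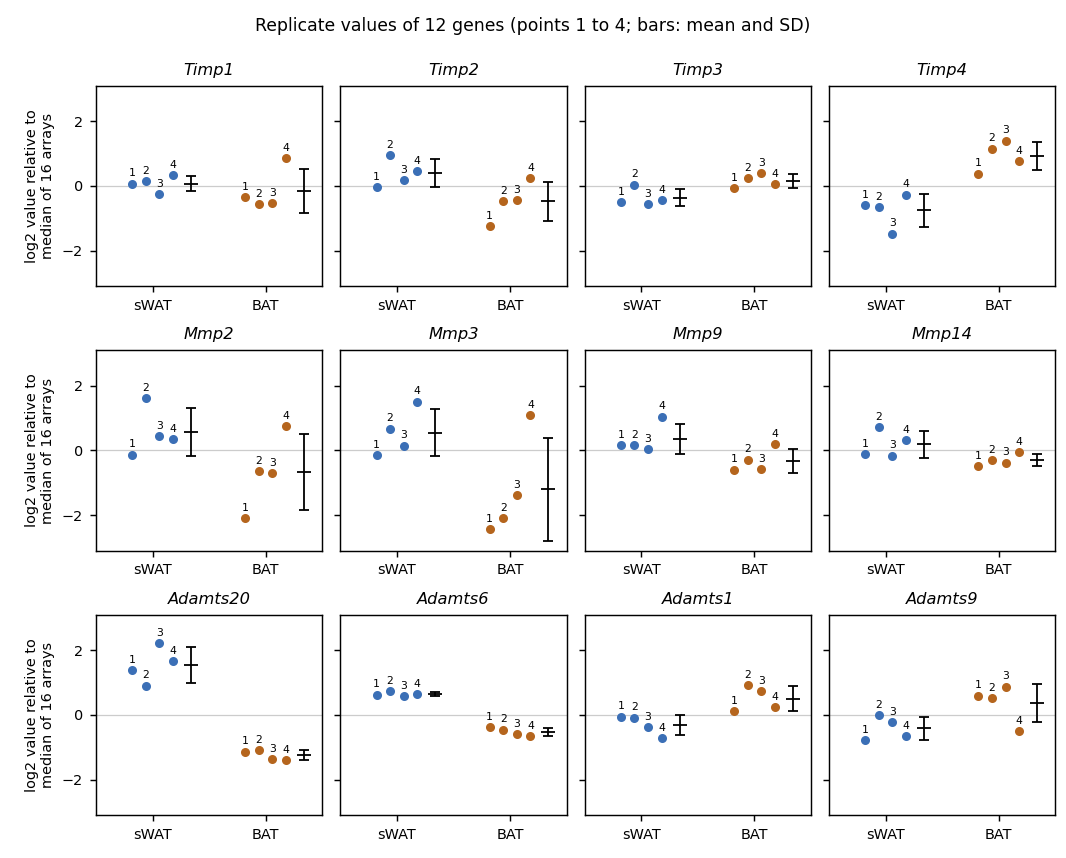
Values of 12 genes in each replicate (vertical axis, log2 relative to the median of the 16 arrays), with sWAT in blue and BAT in orange, the replicate number above each point and a bar for the mean and SD (n = 4). Adamts20 and Adamts6 separate the tissues widely, whereas for Mmp2, Mmp3 and Timp1 BAT replicate 4 lies with or above sWAT.

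Both gelatinases, the enzymes that degrade denatured collagen and the collagen IV of basement membranes, were lower in BAT. Mmp2 read -0.13, 1.62, 0.44 and 0.35 in sWAT and -2.10, -0.63, -0.70 and 0.76 in BAT. BAT replicates 1 to 3 lay below every sWAT value, and BAT replicate 4 lay above 3 of the 4. The difference was -1.24 ± 0.41 (adjusted p = 0.0495, 2.36-fold) and 0.41, in the opposite direction, between the replicates numbered 4. It was -1.79 without replicate 4 (adjusted p = 0.00175), while it did not pass without replicate 1, 2 or 3 (-0.99, -0.90 and -1.27, adjusted p = 0.187, 0.162 and 0.0942). In a fit without the replicate number the same difference had an adjusted p of 0.0957.

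Mmp9 read 0.17, 0.18, 0.05 and 1.05 in sWAT and -0.59, -0.29, -0.59 and 0.20 in BAT. In each tissue the replicate numbered 4 was the highest, and only BAT replicate 4 overlapped with sWAT. The difference was -0.68 ± 0.12 (adjusted p = 0.00492, and 0.0502 in a fit without the replicate number) and its probe sets gave -0.73 and -0.63. It was -0.85 between the replicates numbered 4, and between -0.76 and -0.46 at the other numbers. The means of 7 neutrophil markers, cells that store MMP9 and MMP8 in their granules, were -0.53, -0.09, 1.44 and 2.96 in sWAT and -0.28, 0.01, -0.55 and 0.80 in BAT. Replicate 4 was the highest of its tissue for this list as for Mmp9, whereas sWAT replicate 3 stood at 1.44 for the list and was the lowest of sWAT for Mmp9. Mmp8, the collagenase of neutrophils, read -0.82, -0.68, 0.87 and 1.94 in sWAT and 0.01, -0.04, -0.33 and 0.99 in BAT, and its difference of -0.17 ± 0.36 did not pass (adjusted p = 0.717). The part of neutrophil RNA in these values was not tested.

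Of the membrane-type enzymes, Mmp14, the collagenase of the cell surface that activates MMP2, was lower in BAT and Mmp24 was higher. Mmp14 read -0.12, 0.72, -0.16 and 0.33 in sWAT and -0.49, -0.30, -0.38 and -0.05 in BAT. BAT replicate 4 lay above 2 of the sWAT values, and the other BAT values lay below all of them. The difference was -0.50 ± 0.16 (adjusted p = 0.0463), and -0.38 between the replicates numbered 4. It did not pass without replicate 1, 2 or 4 (-0.54, -0.32 and -0.53, adjusted p = 0.0933, 0.201 and 0.0866), nor in a fit without the replicate number (adjusted p = 0.0662). Its 3 probe sets gave -1.31 ± 0.23 (adjusted p = 0.00527, with no overlap of the tissues), -0.34 and 0.17, so that 1 of them carried the call. Mmp24, which is best known from the nervous system, had a difference of 0.48 ± 0.15 (adjusted p = 0.041) with values of -0.31 to -0.07 in sWAT and 0.02 to 0.54 in BAT, and did not pass without replicate 1, 2 or 4 (0.36, 0.47 and 0.49, adjusted p = 0.124, 0.137 and 0.1). Mmp16 (0.13) and the glycolipid-anchored Mmp17 (0.23) did not pass.

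**Figure D3:**
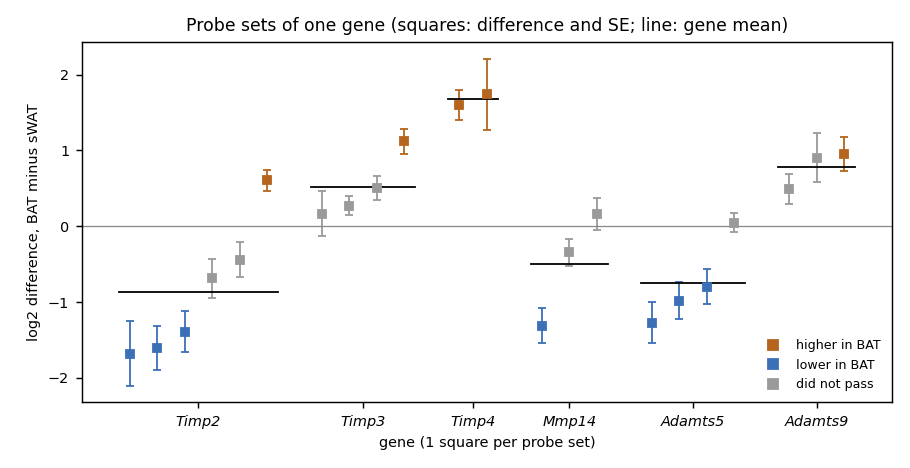
Log2 difference BAT minus sWAT (vertical axis) of each probe set of 6 genes, with squares for the fitted difference, bars for its SE (n = 4 per tissue), colours for the call over all 45101 probe sets and a line at the gene mean. The Timp2 probe sets run from -1.68 to 0.60 and those of Mmp14 from -1.31 to 0.17, whereas the 2 of Timp4 lie at 1.60 and 1.74.

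At the level of probe sets, 9 of the 78 were higher in BAT and 14 lower, 29.5% in all, against 32.4% of all 45101 probe sets in either direction. Of the 21 members with more than 1 probe set, 9 had probe sets on both sides of 0. Among called genes these were Timp2, Mmp14 and Adamts5, in which a single probe set at 0.05 stood apart from 3 that were lower at -1.27 to -0.79.

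Among the stromelysins, which cleave many non-fibrillar matrix proteins and activate other MMPs, only Mmp3 (stromelysin 1) passed. Mmp3 read -0.15, 0.67, 0.15 and 1.51 in sWAT and -2.44, -2.10, -1.37 and 1.10 in BAT. BAT replicates 1 to 3 lay more than 1 unit below every sWAT value, and BAT replicate 4 lay above 3 of them. The difference was -1.75 ± 0.36 (adjusted p = 0.00827, 3.36-fold), -0.41 between the replicates numbered 4 and -2.20 without them. In a fit without the replicate number the adjusted p was 0.0685. Mmp10 (stromelysin 2, 0.09), Mmp11 (stromelysin 3, 0.38) and Mmp7 (matrilysin, 0.34) did not pass. Mmp7 passed with the low 5' arrays left out.

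Mmp3 lies in a row of 10 Mmp genes on chromosome 9, in the order Mmp13, Mmp12, Mmp1b, Mmp3, Mmp1a, Mmp10, Mmp8, Mmp27, Mmp20 and Mmp7, of which 9 were measured. In the fit with the block and all arrays, Mmp3 was the only one of the 9 that passed, and its neighbours Mmp1b and Mmp1a had differences of 0.17 and 0.09. Promoters of this row are known for a binding site of AP-1, the factor of FOS and JUN proteins, and for a TATA box. Sequences are shown only for the genes of the row in which the letters of both were found, because these genes differed in outcome. RefSeq promoters (GRCm38.p6) were given for 27 of the 42 members, 30 promoters in all, and the 250 bases before each start were searched for TGAGTCA or its reverse complement TGACTCA on both strands and for TATAAA on the strand of the gene. The AP-1 letters were found in 7 of the 12 promoters of the 10 genes of the row (58.3%), which are 7 of the 11 promoters of the 9 measured genes (63.6%, 1 for each of 7 genes), in 0 of 19 promoters of the members elsewhere, and in 4.46% of all 32851 promoters. The TATAAA letters were found in 58.3% of the 12, 63.6% of the 11, 10.5% of the 19 and 7.59% of all promoters. The 120 bases before the start are printed 5' to 3' on the strand of the gene, with both motifs in capitals.
Mmp13 (chr9:7272394-7272513, plus strand): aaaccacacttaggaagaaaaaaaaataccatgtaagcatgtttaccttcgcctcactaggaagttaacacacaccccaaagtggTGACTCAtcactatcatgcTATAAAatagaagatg
Mmp1b (chr9:7388027-7388146, minus strand): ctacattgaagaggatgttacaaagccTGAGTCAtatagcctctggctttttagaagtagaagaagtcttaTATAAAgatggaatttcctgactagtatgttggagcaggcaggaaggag
Mmp3 (chr9:7445702-7445821, plus strand): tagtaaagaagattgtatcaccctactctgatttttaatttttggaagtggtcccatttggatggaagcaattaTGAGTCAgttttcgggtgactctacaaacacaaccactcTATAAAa
Mmp1a (chr9:7464021-7464140, plus strand): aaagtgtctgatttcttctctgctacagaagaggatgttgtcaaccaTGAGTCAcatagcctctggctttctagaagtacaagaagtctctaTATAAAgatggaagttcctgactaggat
Mmp10 (chr9:7502222-7502341, plus strand): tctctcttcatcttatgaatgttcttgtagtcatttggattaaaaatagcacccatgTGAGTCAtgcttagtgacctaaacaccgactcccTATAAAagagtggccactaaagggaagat
Mmp7 (chr9:7691970-7692089, plus strand): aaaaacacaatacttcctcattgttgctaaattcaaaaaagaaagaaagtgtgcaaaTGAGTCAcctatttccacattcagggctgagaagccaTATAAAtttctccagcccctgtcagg
Counted from the start, the AP-1 letters began at position -46 in Mmp3, at -63 in Mmp10 and Mmp7, at -73 in Mmp1a, at -93 in Mmp1b and at -35 in Mmp13, where they read TGACTCA. Mmp12 had them before another of its starts, and Mmp8 and Mmp20 had none in this window. A match describes these letters and shows neither binding nor a cause of the difference in Mmp3.

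The collagenases, which cut the triple helix of fibrillar collagens, did not pass. Mmp13, the main interstitial collagenase of the mouse, was at 0.53 ± 0.19 (adjusted p = 0.0593), with 3 of 4 replicate numbers higher in BAT, and passed without replicate 2 (0.76, adjusted p = 0.0178). It also passed with the low 5' arrays left out (0.49, adjusted p = 0.0469). Mmp1a and Mmp1b, closely related mouse copies, were at 0.09 and 0.17, and whether their probe sets tell them apart was not tested. Mmp12, the elastase of macrophages, read -0.31, 0.30, -0.94 and -1.34 in sWAT and -1.54, 0.57, 0.90 and 0.40 in BAT. BAT replicate 1 was the lowest value of all, and without replicate 1 the difference went from 0.65 ± 0.49 (adjusted p = 0.306) to 1.28 (adjusted p = 0.0395). Of 10 macrophage markers, 6 were lower and 1 was higher in BAT, with list means of 0.05 to 0.64 in sWAT and -1.06 to 0.29 in BAT. Among the remaining MMPs, Mmp19 was at 0.26, Mmp20, the enzyme of tooth enamel, at 0.59 and Mmp23 at -0.45, and none passed. Mmp20 passed without replicate 3 (0.89, adjusted p = 0.017), and Mmp23 without replicate 4 (-0.78, adjusted p = 0.0114). With the low 5' arrays left out, Mmp19 and Mmp20 passed.

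Of the 7 proteoglycan-cleaving ADAMTS genes, 3 were higher in BAT, 2 were lower and 2 did not pass. Adamts20, a versican-cleaving enzyme that is needed for the spread of pigment cells in the skin, read 1.38, 0.90, 2.22 and 1.66 in sWAT and -1.14, -1.09, -1.37 and -1.39 in BAT. The tissues were separated by about 2 log2 units at their nearest values, those of replicate 2, and the BAT values were close together. The difference was -2.79 ± 0.25 (adjusted p = 2.61e-04, 6.90-fold), with -3.05 between the replicates numbered 4, and it was the largest among the members. The gene had 1 probe set, and the 2 arrays of a replicate differed by up to 1.72 log2 units and by 0.19 in the median.

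Adamts1 and Adamts9, both proteases of versican, were higher in BAT. Adamts1 read -0.05, -0.08, -0.38 and -0.73 in sWAT and 0.12, 0.92, 0.74 and 0.24 in BAT, with no overlap. Its difference was 0.81 ± 0.18 (adjusted p = 0.0114) and 0.97 between the replicates numbered 4, and it was 0.75 without replicate 2 (adjusted p = 0.0527). Adamts9 read -0.78, -0.01, -0.21 and -0.65 in sWAT and 0.60, 0.51, 0.87 and -0.50 in BAT, so that BAT replicate 4 lay within sWAT and the other 3 above it. Its difference was 0.78 ± 0.21 (adjusted p = 0.0249), 0.15 between the replicates numbered 4 and 0.99 without them (adjusted p = 0.0104). It did not pass without replicate 1 (0.59, adjusted p = 0.0877) or 3 (0.68, adjusted p = 0.0725), nor without the replicate number in the fit (adjusted p = 0.0522).

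Adamts5, the main aggrecan-cleaving enzyme of cartilage, read 0.52, 0.95, 0.23 and 0.01 in sWAT and -0.42, -0.18, -0.66 and -0.02 in BAT. The tissues did not overlap, but the replicates numbered 4 were almost level, at -0.03. The difference was -0.75 ± 0.19 (adjusted p = 0.0215), and it did not pass without replicate 1, 2 or 3 (-0.68, -0.62 and -0.70, adjusted p = 0.0855, 0.0927 and 0.0601). Adamts8 was higher by 0.40 ± 0.12 (adjusted p = 0.036, no overlap) and did not pass without replicate 1, 2 or 4 (0.34, 0.39 and 0.40, adjusted p = 0.0984, 0.144 and 0.102). Its only probe set did not pass in the fit over all probe sets (adjusted p = 0.0587). Adamts4, another aggrecan-cleaving enzyme, and Adamts15 did not pass, at 0.01 and -0.19.

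Among the other ADAMTS genes, Adamts6, a protease that acts on microfibril proteins, was lower in BAT. It read 0.63, 0.74, 0.58 and 0.65 in sWAT and -0.38, -0.45, -0.59 and -0.65 in BAT. Within each tissue the 4 values were close together, and the tissues lay far apart. The probe sets spread more than their mean, with an SD in sWAT of 0.22 and 0.28 against 0.07 for the gene. The 2 arrays of a replicate differed by up to 0.85 log2 units. The difference was -1.17 ± 0.12 (adjusted p = 3.93e-04, 2.25-fold), both of its probe sets passed at -1.29 and -1.05, and the replicates numbered 4 differed by -1.30. Its relative Adamts10 (-0.14) did not pass, nor did Adamts16 (-0.05), Adamts18 (0.26), Adamts19 (0.15), the procollagen N-proteinase Adamts3 (0.05) or Adamts7 (-0.01) and Adamts12 (-0.43), which cleave the cartilage protein COMP. The 2 probe sets of Adamts12 gave -1.04 and 0.19.

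The ADAMTS-like genes, whose products bind fibrillin microfibrils, were higher in BAT where they passed. Adamtsl5 was at 0.57 ± 0.12 (adjusted p = 0.0104), with -0.54 to -0.12 in sWAT and 0.13 to 0.44 in BAT, and it was 0.54 without replicate 2 (adjusted p = 0.0624). Adamtsl2 was at 0.42 ± 0.13 (adjusted p = 0.0436), with -0.37 to -0.09 in sWAT and 0.01 to 0.36 in BAT, and did not pass without replicate 1, 2 or 4 (0.31, 0.45 and 0.42, adjusted p = 0.121, 0.12 and 0.114). The only probe set of Adamtsl2 did not pass in the fit over all probe sets (adjusted p = 0.0652). Adamtsl3 (0.61, adjusted p = 0.116, with BAT replicate 4 highest at 1.18), Adamtsl1 (-0.18) and Adamtsl4 (-0.29) did not pass.

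**Figure D4:**
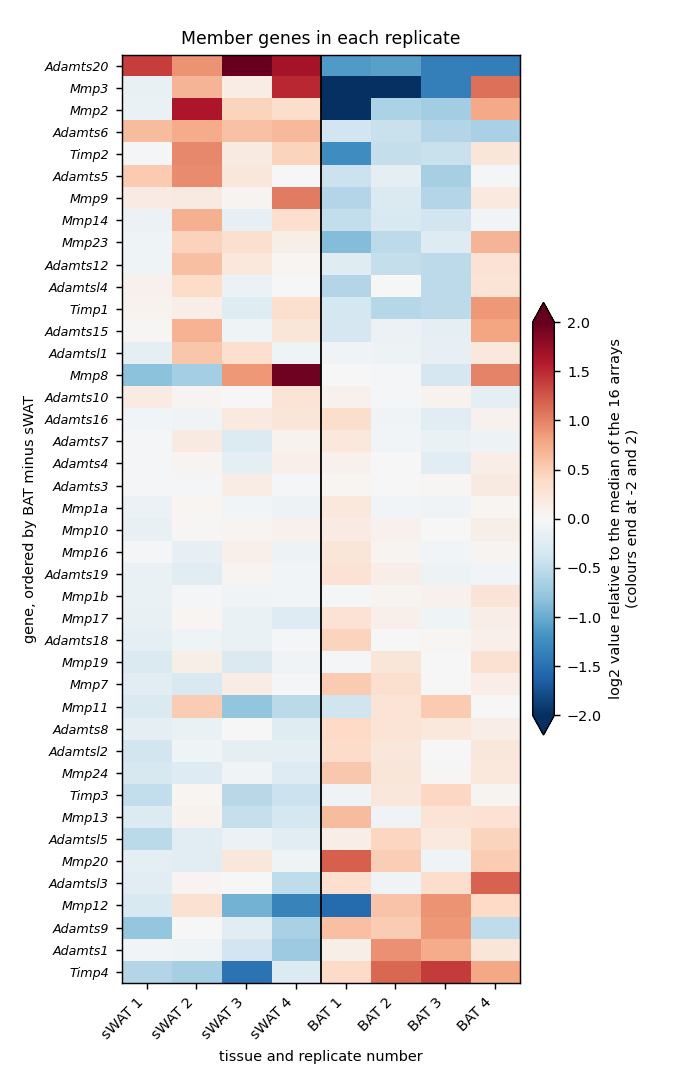
Values of the 42 genes (rows, ordered by the difference BAT minus sWAT) in the 4 sWAT and 4 BAT replicates (columns), in colours from blue to red for log2 values against the 16-array median, with the colours ending at -2 and 2. In the upper rows BAT replicate 4 is pale or red where BAT replicates 1 to 3 are blue, except in Adamts20 and Adamts6.

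BAT replicate 4, the one BAT replicate with low Xist, was the highest of the BAT replicates in 19 of the 42 members (45.2%, against 28.9% of all genes), in 6 of the 8 members called lower in BAT (75%, against 49.6% of all 3177 genes called lower) and in 1 of the 8 called higher (12.5%, against 15% of all 3812). Several marker lists were also highest in BAT replicate 4 among BAT. Of 8 fibroblast and progenitor markers 7 were highest there, and Pdgfrb was lowest there at -0.25. The mean of the 8 genes was -1.17, -0.52, -0.48 and 0.56 in BAT replicates 1 to 4 and -0.06, 0.81, 0.14 and 0.17 in sWAT, and 4 of the 8 were lower in BAT and none higher. List means in BAT replicate 4 against the other BAT replicates were 0.08 against -1.08 to -0.78 for white adipocyte markers, 0.29 against -1.06 to -0.27 for macrophage markers, 0.65 against -0.32 to -0.17 for mast cell markers and 0.80 against -0.55 to 0.01 for neutrophil markers. Muscle markers were likewise highest in BAT replicate 4 (list mean 4.27), and brown adipocyte markers were lowest there among BAT (1.43, against 3.27 to 3.51). The part of any of these cell types, of muscle RNA and of sex in the differences of Mmp2, Mmp3, Timp1 and Timp2 was not tested. For Adamts20, Adamts6 and Timp4 the replicates numbered 4 differed by -3.05, -1.30 and 1.03, in the direction of the calls. That direction was kept there in 15 of the 16 called members. The calls used these replicates too, so this is no separate check. In Adamts5, Adamts9 and Timp2 the difference there was small, at -0.03, 0.15 and -0.20 against fitted differences of -0.75, 0.78 and -0.87. The direction at number 4 rests on 1 replicate per tissue, and the part of sex and of cell types in the called members was not tested either.

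**Figure D5:**
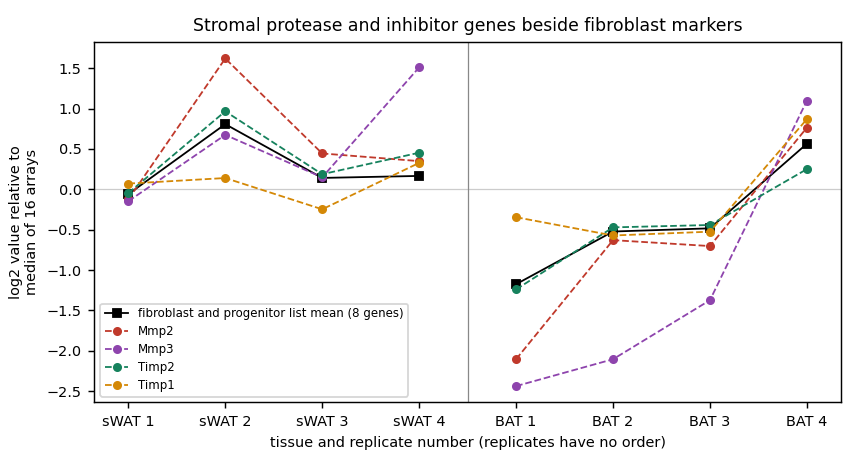
Values of Mmp2, Mmp3, Timp2 and Timp1 in each replicate (vertical axis, log2 relative to the median of the 16 arrays) beside the mean of 8 fibroblast and progenitor markers (black squares); lines join replicates for legibility, as replicates have no order. BAT replicate 4 is the highest BAT replicate in all 5 series, with the marker mean at 0.56 and Mmp3 at 1.10.

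Of 58 other genes of matrix proteolysis, 11 were higher in BAT (21% of all genes were) and 14 were lower (17.5% of all genes were). Among 18 activators, receptors and inhibitors of the enzymes, 5 were higher and 4 lower. Bsg (basigin, which induces MMPs) was higher by 1.75 ± 0.36 (adjusted p = 0.00923) and Sdc4, a heparan sulphate proteoglycan of the cell surface, by 1.14 ± 0.30 (adjusted p = 0.0244). The proprotein convertases Furin, Pcsk5 and Pcsk6, some of which activate membrane-type MMPs and ADAMTS precursors, were higher by 0.77, 0.64 and 0.78. Cd44, the hyaluronan receptor that docks MMP9 and MMP14, was lower at -1.56 ± 0.19 (adjusted p = 8.85e-04), and Reck, the membrane-bound inhibitor of MMP2, MMP9 and MMP14, at -1.15 ± 0.23 (adjusted p = 0.00737). Sdc1, another such proteoglycan (-1.01), and Thbs2 (-0.97), which takes part in the uptake of MMP2, were lower as well. Between the replicates numbered 4 the differences were 1.53, 0.05, 0.125, 0.997 and 1.17 for Bsg, Sdc4, Furin, Pcsk5 and Pcsk6. For Cd44, Reck, Sdc1 and Thbs2 they were -1.11, -0.34, -0.59 and -0.07, so that Sdc4 and Thbs2 were almost level there.

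Of 13 genes of the ADAM family, which is related to the ADAMTS group, 2 were higher and 7 lower. Adam12 was higher by 1.14 ± 0.16 (adjusted p = 0.00185), and Adamdec1, a protease of macrophages and dendritic cells, was lower at -2.58 ± 0.51 (adjusted p = 0.00741), followed by Adam19 (-1.51) and Adam8 (-1.10). The second one higher was Adam28 (0.45), and the sheddases Adam10 (-0.73) and Adam17 (-0.77) were lower, as were Adam23 (-0.51) and Adam33 (-0.52). Of 13 procollagens and processing genes, 1 was higher (Plod1, a lysyl hydroxylase, 0.60) and 3 were lower, all of them fibrillar collagen chains. Col3a1, Col1a2 and Col1a1 were at -2.61 ± 0.73, -2.10 ± 0.49 and -1.48 ± 0.48 (adjusted p = 0.0282, 0.0143 and 0.0466). The replicates numbered 4 differed by 0.61, -0.05 and 0.22 in these 3 genes, so that the calls rested on numbers 1 to 3. Of 14 ADAMTS substrates and microfibril proteins, 3 were higher and none lower, led by Ltbp2 at 1.99 ± 0.17 (adjusted p = 2.04e-04), a protein associated with microfibrils, and with Mfap5 lowest at -0.75, which did not pass (adjusted p = 0.247). The other 2 that were higher were the proteoglycans Acan (aggrecan, 0.46) and Bcan (brevican, 0.47).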

How the data were processed

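RNA of sWAT and BAT was measured on 16 arrays, and the authors normalized them by RMA (named in the submitters' processing notes) with quantile normalization in GeneSpring GX and subtracted the median of all samples per probe set. The deposited log2 values have a median of 0 over the arrays for every probe set. The authors' own fold changes were not used. Groups came from the tissue labels. Arrays were averaged within replicates, and a gene was the mean of its probe sets with 1 symbol in the platform annotation (932 probe sets with several symbols and 9211 unnamed were not used for genes). BAT minus sWAT was fitted with limma 3.58.1 (lmFit and eBayes, two-sided, R 4.3.3). The replicate number entered as a block because the methods name a paired test, with Benjamini-Hochberg adjustment over 18194 genes or 45101 probe sets. Errors are SE of the difference, and the small number of arrays limits their precision. Nothing in the labels says that equal numbers are 1 animal. With the block, p-values rest on the spread of the BAT minus sWAT difference over the replicate numbers.

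Replicate values are given for all Timp genes, Mmp2, Mmp9, Mmp14 and members of at least 2-fold. Values for other called members, and for Mmp8 and Mmp12, were added after they were seen. Of the other matrix proteolysis genes the highest and lowest of each list and those of at least 2-fold are named, with other called genes of these lists added likewise. Members, lists and tests were chosen with earlier results of these data known. The fit was tested on simulated data. Alternatives were the block, the arrays used, the methods' paired test, scaling, probe set choice and leaving out replicates. Promoters are RefSeq sequences. Python 3.11.15 and matplotlib 3.10.9 made the figures.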

Additional observations from a re-analysis of the deposited data

Results flagged for a closer look

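In 84 groups of 4 replicates (42 genes in each tissue), 3 held a replicate far from the other 3, where chance gives about 1 in 20 groups. Timp1 was at 0.869 in BAT replicate 4, against -0.57 to -0.35 in the other BAT replicates. Mmp9 was at 1.05 in sWAT replicate 4, against 0.05 to 0.18 in the other sWAT replicates. Adamts3 was at 0.154 in sWAT replicate 3, against -0.04 to -0.03 in the others, a small distance in log2 units.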

How the results depend on the processing

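Of the 16 called members, none reversed in any of the 14 alternatives. The fit without the block and the methods' paired test leave the difference itself unchanged, so no reversal was possible in them. Adamts20 kept its call in 14 of 14, Adamts6 and Timp4 in 13, and Mmp3, Mmp9 and Adamtsl5 in 11. Adamts1 kept it in 10, Timp2 in 9, Adamts9 in 8, Adamts5 in 7, and Adamts8 and Mmp24 in 6. Adamtsl2, Mmp14 and Timp3 kept it in 5, and Mmp2 in 4. Timp4 lost its call in the methods' paired test (adjusted p = 0.0953). Replicates of equal number did not deviate together (correlations of -0.15, 0.08, -0.34 and 0.26), only sWAT replicate 4 correlated best with the BAT replicate of its own number, and the numbers are not shown to pair the samples. With no replicate block, 4 members were lower, 2 of them at least 2-fold, and 14 member probe sets were higher, with Adamts9, Mmp14, Mmp2, Mmp3 and Mmp9 lost and Mmp13 gained. With the first arrays alone, 4 members were higher and 5 lower, and 9 other matrix genes were lower. With the second arrays alone, 3 members were at least 2-fold higher and 6 other genes were higher. Without the low 5' arrays 12 members and 14 member probe sets were higher, with Mmp7, Mmp13, Mmp19 and Mmp20 gained. The methods' paired test over 4 pairs, after Benjamini-Hochberg, gave 1 member higher and 3 lower, 0 and 2 at least 2-fold, 3 probe sets higher and 3 lower, and 3 other genes each way. Scaling to Gapdh and Actb, which moved the median of all genes from 0.15 to 0.47 and the median SE from 0.14 to 0.56, gave 1 member higher and 1 lower (1 at least 2-fold lower), 2 probe sets higher and 1 lower, and 2 other genes higher and 3 lower. Scaling to their 3' probe sets, chosen after seeing the data, gave 3 members higher, 5 lower, 5 probe sets higher and 4 other genes higher. The probe set of largest variance gave 2 members at least 2-fold higher and 7 lower. Leaving out 1 replicate number gave 3 to 7 members higher and 4 to 8 lower, 1 to 3 at least 2-fold higher and 3 to 5 lower, 5 to 12 probe sets higher and 8 to 17 lower, and 6 to 11 other genes higher and 7 to 17 lower. The causes were not tested. With 4 replicates per tissue the median SE over all genes was 0.14 log2 units, which limits how small a difference can be resolved.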
